A study of Rattus norvegicus with 4 samples.

Results

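Notch signalling passes information between touching cells: a ligand such as Jag1 on one cell binds a receptor such as Notch1 or Notch2 on its neighbour, proteases release the receptor's intracellular domain, and that domain joins the DNA-binding protein Rbpj to switch on target genes. Hes1, a basic helix-loop-helix (bHLH) repressor, is the best known of these targets, and it works by recruiting Groucho proteins, co-repressors encoded by the Tle genes, which also serve many other transcription factors. In skeletal muscle the pathway is known for keeping satellite cells, the muscle stem cells, quiescent and for its part in vessel walls. The 6 genes described here are Hes1, Notch1, Notch2, Jag1, Tle1 and Tle3, out of 4736 genes with a probe set of a single symbol on the array. They were taken by name with the difference between control and unloaded muscle already known, so their differences are given as a description and support nothing further. They were read by 7 probe sets (2 for Hes1, 2 for Notch1 and 1 each for Notch2, Jag1 and Tle1). No probe set was annotated to Tle3 under its symbol, gene ID or older name, so it was not analysed here. Of these genes Hes1 is the classical Notch target, and Notch1, Notch2 and Jag1 are receptors and a ligand.

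The samples were soleus muscles of female rats, a slow postural muscle of the lower hindlimb, measured on Affymetrix arrays. Control rats were normally caged and moved freely, and unloaded rats were kept from standing on their hindlimbs for 10 h a day over 11 days. Each group had 2 arrays, and each array was given the combined RNA of 4 to 5 rats. Spreads therefore describe pools, not single animals. Nothing in the sources used here says that the pools were independent in any other respect, and strain and age are not given there.

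Signals are MAS5 intensities on a linear scale, with per-array medians of 33.9 to 35.6 and trimmed means of 150.2 or 150.3. Log2 differences are unloaded minus control on the scale log2(signal + 9), with their standard error (SE) from limma. Of the 5257 probe sets tested, 276 passed an adjusted p under 0.05 (5.25%), 136 of them higher (2.59%) and 140 lower (2.66%) in the unloaded pools. All 7 member probe sets were bright enough to be tested, with mean signals from 30.4 for Notch2 to 278 for the brighter Hes1 probe set against a minimum of 21.0. The tissue label was checked on 4 muscle fibre genes with a probe set (Myh7, Acta1, Ckm and Des), whose summed signal was 32574 and 33524 in controls and 29525 and 33471 in unloaded pools. Fewer cells of a type and less RNA per cell cannot be told apart in such bulk samples.

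Because Hes1 is both a Notch target and a repressor of its own gene, its promoter is shown here beside that of Tle1, the other member with the higher signal in unloaded muscle. The windows run from 250 bases before to 50 bases after a RefSeq transcript start (assembly GRCr8), and entries for all 6 genes were matched by symbol. Hes1 lies on chr11:84212996-84213295, minus strand, and Tle1 on chr5:90980879-90981178, minus strand. The Tle1 window sits inside the annotated gene (chr5:90898182-90982118), so it marks one of its starts. Capitals mark TGGGAA, the core letters bound by Rbpj, and CACNAG, the N-box that HES proteins bind, on either strand.

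Hes1: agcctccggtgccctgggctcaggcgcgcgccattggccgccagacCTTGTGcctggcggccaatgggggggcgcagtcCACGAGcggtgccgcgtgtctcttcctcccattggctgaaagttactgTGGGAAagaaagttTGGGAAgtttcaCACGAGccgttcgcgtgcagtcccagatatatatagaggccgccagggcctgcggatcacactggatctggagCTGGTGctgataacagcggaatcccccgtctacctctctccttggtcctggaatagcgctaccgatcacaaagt

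Tle1: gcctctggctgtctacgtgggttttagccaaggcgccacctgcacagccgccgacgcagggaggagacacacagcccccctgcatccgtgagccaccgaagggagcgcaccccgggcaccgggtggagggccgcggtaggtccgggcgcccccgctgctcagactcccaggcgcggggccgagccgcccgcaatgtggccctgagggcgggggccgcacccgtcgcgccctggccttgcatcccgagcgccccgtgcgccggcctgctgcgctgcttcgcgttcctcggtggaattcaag

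The Hes1 window held 2 TGGGAA matches on the gene's strand, at positions -123 to -118 and -109 to -104 from the start, and 4 N-box matches, the nearest to the Rbpj core beginning at -97. TGGGAA or its complement occurred in 25.7% of 33469 RefSeq promoter windows of the same length, and at least 2 matches occurred in 3.85%. An N-box match was more common, in 43.1% of windows, and 4 or more were found in 0.353%. Notch1 also held 4 N-box matches, of which 2 overlapped on opposite strands, and no TGGGAA. Neither set of letters was found in the windows of Notch2, Jag1, Tle1 or Tle3. The Tle1 window was the richest in G and C at 73.7%, against 60.3% for Hes1 and a median of 51.7% over all windows. These are matches of letters, not measured binding sites.

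**Figure D1:**
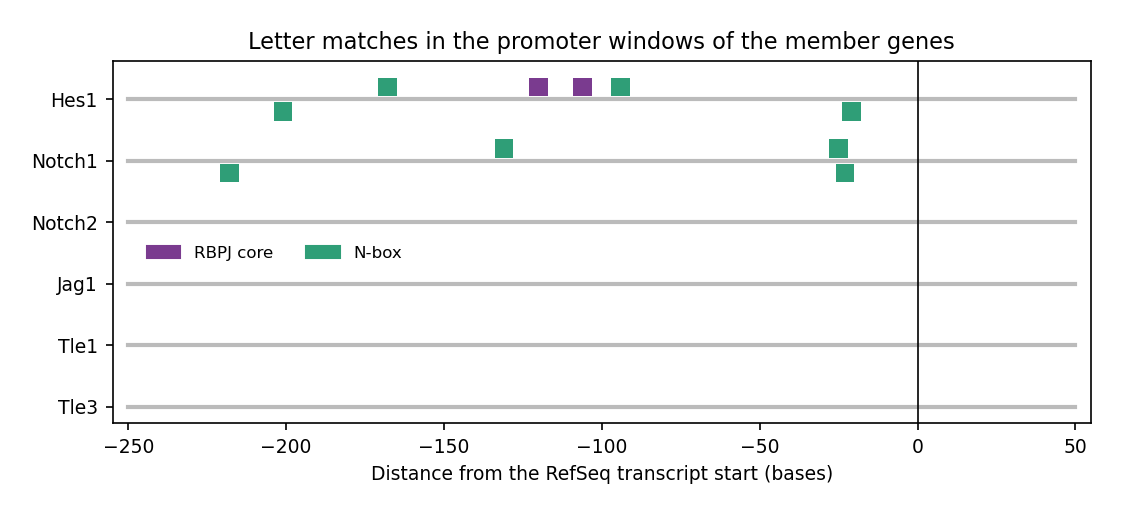
Positions of TGGGAA (RBPJ core) and CACNAG (N-box) matches in the promoter windows of the 6 member genes, in bases from the RefSeq transcript start; bars above a line are on the gene's strand and bars below it on the other. Hes1 carries 2 RBPJ core and 4 N-box matches, Notch1 carries 4 N-box matches, and the other 4 windows carry none.

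Hes1, the Notch-responsive repressor, was 2.14-fold higher in unloaded soleus on its brighter probe set. On the probe set D13417_at it read 167.9 and 179.0 in the control pools and 360.9 and 404.0 in the unloaded pools. Every unloaded value lay at least 2.02-fold above every control value. The mean rose from 173 ± 7.85 to 382 ± 30.5 (SD, n = 2 pools each), a log2 difference of 1.10 (SE 0.11).

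The second Hes1 probe set, D13417_g_at, gave 131.4 and 160.4 in controls and 283.6 and 310.1 in unloaded pools. Its groups were also apart, by 1.77-fold at the closest pair, although the control pools differed more from each other than on the first probe set. The means were 146 ± 20.5 and 297 ± 18.7, and the log2 difference was 0.99 (SE 0.13). Both probe sets derive from the same sequence record, so they are 2 readings of 1 transcript and not independent evidence.

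Tle1, a Groucho co-repressor that Hes1 and other repressors recruit, was also higher in unloaded muscle. It read 93.3 and 68.8 in the control pools against 193.8 and 215.2 in the unloaded pools. The control pools were uneven, yet the lower unloaded value was still 2.08-fold above the higher control value. The mean went from 81.1 ± 17.3 to 204 ± 15.1, a log2 difference of 1.26 (SE 0.16), or 2.39-fold. Without control pool 2 the log2 difference was 1.06, below the 1.14 and 1.12 of the Hes1 probe sets, so Tle1 and Hes1 have no settled order. A single probe set reads Tle1, so no second reading is at hand.

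The receptors and the ligand had slightly lower means in unloaded muscle, with log2 differences of -0.19 to -0.12. Lower log2 differences than theirs were found in 23.1% to 31.4% of tested probe sets. Notch1 on X57405_g_at read 135.4 and 149.9 in controls and 117.6 and 131.0 in unloaded pools, a log2 difference of -0.19 (SE 0.13). The groups did not overlap, but the gap between the nearest pools was 4.4 signal units, less than the distance of 14.5 between the control pools or 13.4 between the unloaded pools. On X57405_at, made from the same record, Notch1 read 61.9 and 61.8 against 51.8 and 61.1 (-0.12, SE 0.15), and the second unloaded pool nearly reached the controls.

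Notch2, the other receptor measured, was the dimmest member. Its signals were 37.1 and 27.4 in controls and 25 and 31.9 in unloaded pools, so the groups overlapped (-0.14, SE 0.21). Without control pool 1 the difference was 0.035, with the opposite sign. Jag1, the ligand, read 46.9 and 48.1 in controls and 43.6 and 39.0 in unloaded pools (-0.17, SE 0.16). Both unloaded pools of Jag1 lay below both controls, at 0.811 to 0.930 of them over the 4 pairs.

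**Figure D2:**
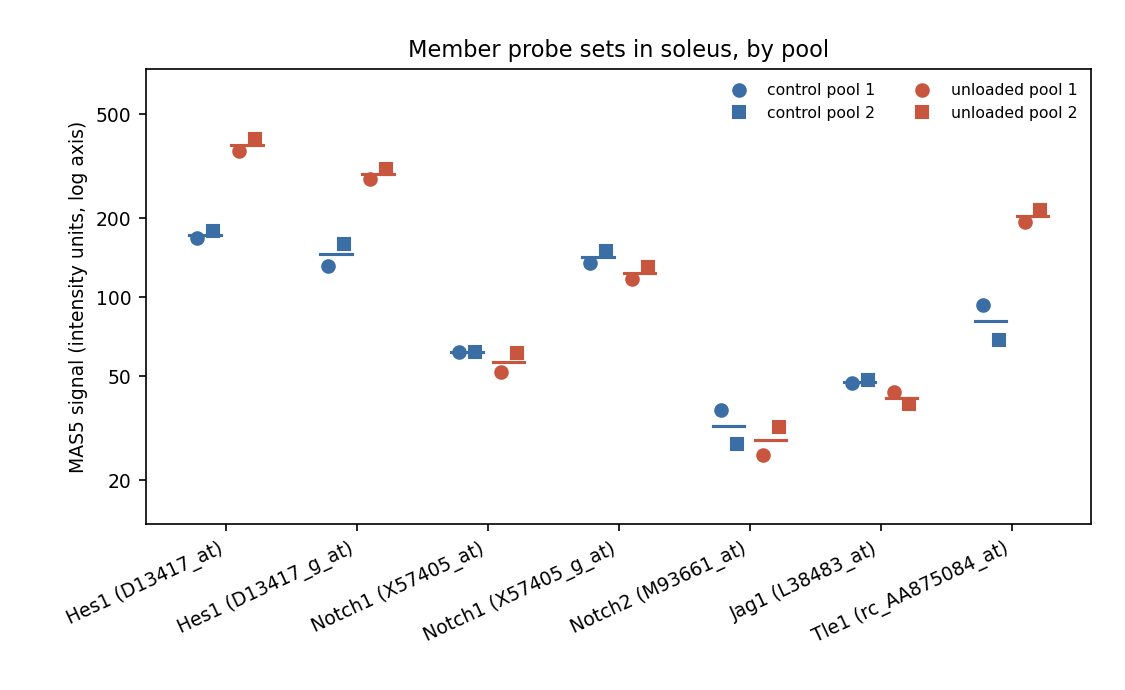
MAS5 signal (log axis) of the 7 member probe sets in each of the 4 pools, with control pools in blue, unloaded pools in red and group means as short lines (n = 2 pools per group). Both Hes1 probe sets and Tle1 sit higher in both unloaded pools, at 360.9 and 404.0 against 167.9 and 179.0 for the brighter Hes1 probe set, while Notch1, Notch2 and Jag1 stay close to their control signals.

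In counts, 3 of 7 member probe sets passed the limma threshold, all higher (both of Hes1, and Tle1), beside 2.59% of all tested probe sets. Both unloaded pools lay above both controls for these 3, beside 25.5% of all tested probe sets, and at least 1.5-fold above them for the same 3, beside 1.94%. They lay below both controls for the 2 Notch1 probe sets and Jag1, beside 25.3%, and at least 1.5-fold below them for 0 of 7, beside 2.13%. The members were chosen on this contrast, and nothing is read from these counts. A larger log2 difference than that of Tle1 was found in 0.361% of tested probe sets, and than that of the brighter Hes1 probe set in 0.552%. With unloaded pool 1 or unloaded pool 2 left out, 1 of the 3 probe sets still passed, the Hes1 probe set D13417_at, at log2 differences of 1.18 and 1.02. The corresponding values were 1.05 and 0.92 for the second Hes1 probe set and 1.33 and 1.18 for Tle1.

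The 5 other genes whose 4-array pattern lay closest to that of Hes1 were Txnip, Mybph, Eef2k, Acsl6 and Gadd45a. Closeness is the root mean square distance between log2 signals centred on their own mean over the 4 arrays, measured from D13417_at. The distances were 0.0514 for Txnip, which restrains glucose uptake, 0.0640 for Mybph, a myosin-binding protein, 0.0780 for Eef2k, a kinase that slows translation elongation, 0.0874 for Acsl6, a fatty acyl-CoA synthetase, and 0.0881 for Gadd45a, a growth-arrest gene. The second Hes1 probe set lay at 0.0869 and Tle1 at 0.188, while the Notch1, Notch2 and Jag1 probe sets lay at 0.610 to 0.643. Since the 4 arrays form 2 groups, a gene with a group difference like that of Hes1 lies near it by construction.

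Among the rest of the pathway, none of the other receptors, ligands and their modifiers passed. A further 106 genes were listed for their role, with earlier results of these data known, so the shares that follow are only a description. Of these genes, 43 had a probe set and 34 were bright enough to test, each by its brightest probe set. In all, 2 rose, 2 fell and 30 did not pass. The 4 that passed are 11.8% of the 34, beside 4.70% of the 3152 genes tested in this way (2.54% higher and 2.16% lower). At an unadjusted p under 0.05 there were 13 of 34, beside 19.9% of the 3152 genes, and the median log2 difference was -0.095 beside 0.014. Pool values in the following are MAS5 signals, and adjusted p-values are from the limma fit with Benjamini-Hochberg adjustment.

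Jag2, the second Jagged ligand, read 152.0 and 137.6 in controls and 115.5 and 109.4 in unloaded pools (-0.34, SE 0.12, adjusted p = 0.176). Its pools did not overlap, but a dimmer probe set gave -0.065. Nedd4, a ubiquitin ligase that acts on Notch, gave 587.9 and 597.0 against 395.5 and 530.1 (-0.37, SE 0.14, adjusted p = 0.191), with the unloaded pools far apart. The Delta-like genes went either way, Dll1 at -0.15 (SE 0.14, adjusted p = 0.612) and Dll3, from 29.8 and 22.5 to 47.8 and 34.1, at 0.50 (SE 0.21, adjusted p = 0.236). The list of receptors, ligands and modifiers had 6 of 19 genes tested, with a median of -0.15. Of these 6, 3 had an unadjusted limma p under 0.05, where 19.9% of all genes tested lay.

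The proteases that cut Notch and the nuclear complex did not pass either, with 0 of 5 and 0 of 3 tested genes called by limma and 1 gene of each list at an unadjusted p under 0.05, where 19.9% of all genes tested lay. Adam10, which makes the first ligand-dependent cut, read 38.9 and 37.8 in controls and 29.9 and 21.7 in unloaded pools (-0.45, SE 0.20, adjusted p = 0.239). Psen2 (-0.18, SE 0.14) and Aph1a (0.12, SE 0.11), both parts of gamma-secretase, and Adam17 (-0.20, SE 0.22) had adjusted p-values between 0.542 and 0.679. Rbpj, the DNA-binding partner of the cleaved receptor, read 144.9 and 123.1 in controls and 142.2 and 116.5 in unloaded pools. Its groups overlapped (-0.050, SE 0.15, adjusted p = 0.897). The co-repressor Ctbp1 gave -0.21 (SE 0.089, adjusted p = 0.232) and the deacetylase Hdac2 gave 0.15 (SE 0.095, adjusted p = 0.438).

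**Figure D3:**
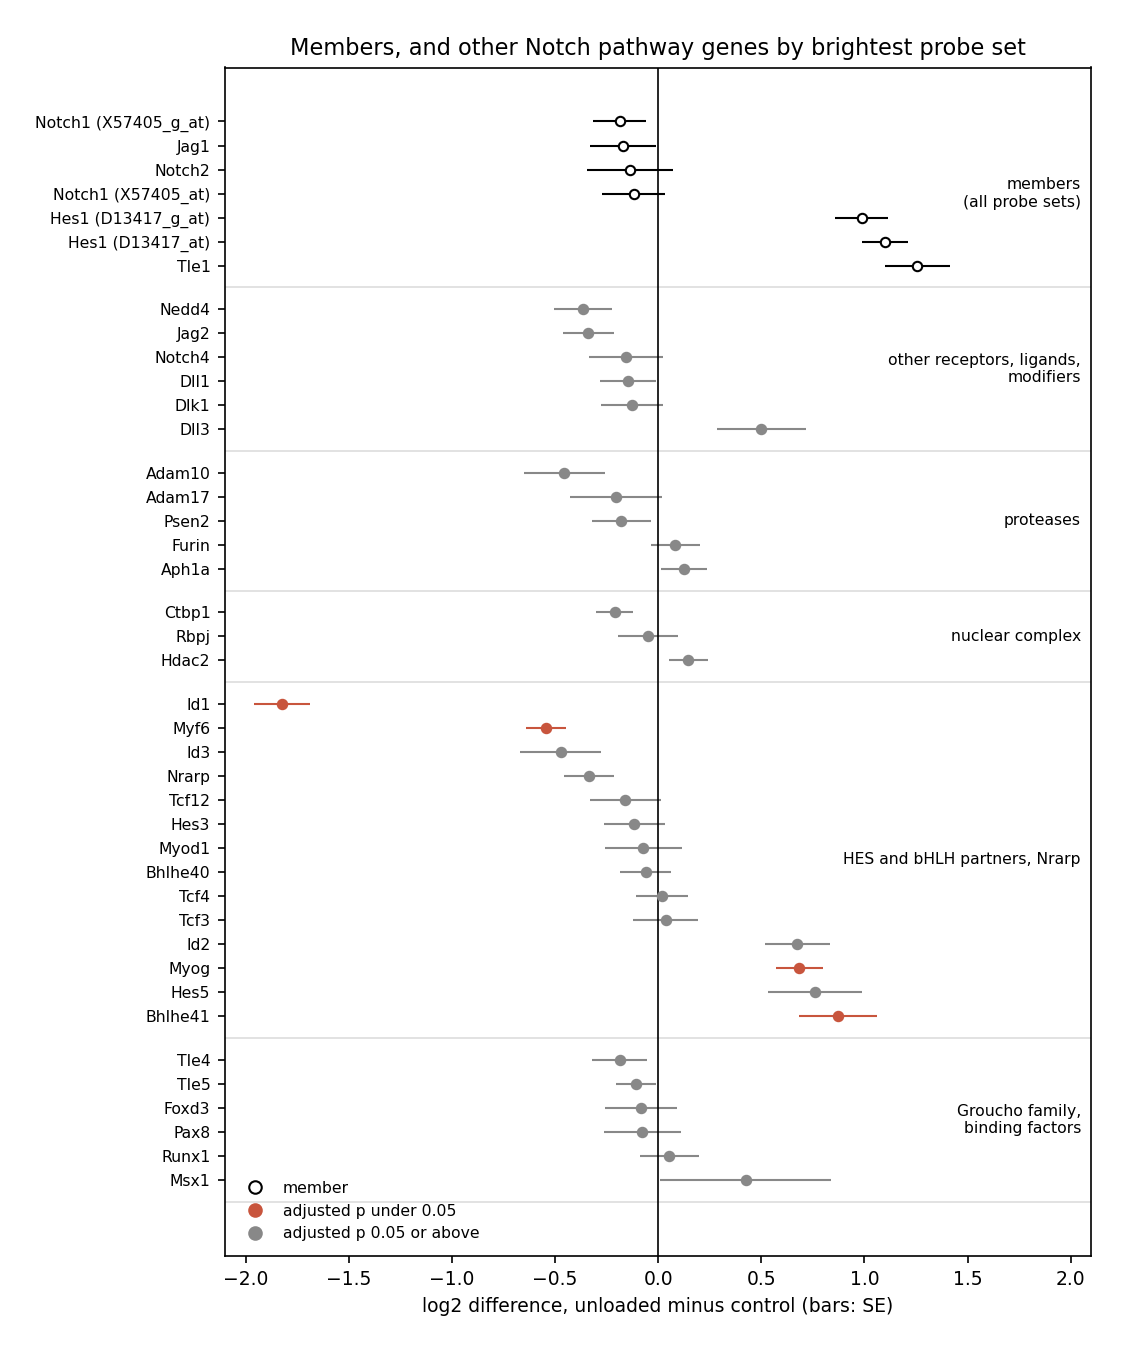
Log2 difference (unloaded minus control, bars SE) of the 7 member probe sets (open circles) and of 34 other pathway genes by their brightest probe set, in 5 lists; red marks an adjusted p under 0.05. Hes1 and Tle1 lie between 0.99 and 1.26, the 30 pathway genes that did not pass lie between -0.47 and 0.76, and the red points are Id1, Myf6, Myog and Bhlhe41.

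Neither of the other Groucho genes tested, Tle4 and Tle5, passed. Tle4 read 86.1 and 86.6 in controls and 76.9 and 72.9 in unloaded pools (-0.18, SE 0.13, adjusted p = 0.495). Tle5, a short family member that can act against the long ones, gave 2117.7 and 2422.6 against 2070.0 and 2138.6 on its brightest probe set (-0.11, SE 0.096, adjusted p = 0.602), and -0.27 to 0.079 on the 3 dimmer ones. How these differ from Tle1 was not tested. Among factors that bind Groucho, Msx1 (0.43, SE 0.41) and Foxd3 (-0.084, SE 0.18) did not pass, and 0 of 6 tested genes of the list were called by limma, also 0 at an unadjusted p under 0.05, where 19.9% of all genes tested lay.

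Nrarp and Hes5, which Notch is known to switch on, and the HES relatives Hes3 and Hes2 were singled out after their values were seen. The Hey genes of the list had no probe set used here. Nrarp, a feedback inhibitor of Notch, read 140.5 and 153.2 in controls and 115.5 and 113.3 in unloaded pools, lower in both but not past the threshold (-0.34, SE 0.12, adjusted p = 0.173). Hes5, a close relative of Hes1, read 16.3 and 25.9 against 47.3 and 36.0, higher in both and also not past it (0.76, SE 0.23, adjusted p = 0.113). A second Hes5 probe set lay under the signal minimum at 8.8 and 7.4 against 7.5 and 5.6, so Hes5 rests on 1 probe set. Hes3 gave 58.4 in both controls and 50.8 and 55.8 in unloaded pools (-0.11, SE 0.15, adjusted p = 0.734), and Hes2 was too dim to test.

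The 4 pathway genes that passed were all in the list of HES relatives and bHLH partners. There 2 rose, 2 fell and 10 did not pass. The 4 are 28.6% of the list's 14 tested genes, beside 4.70% of all genes tested. At an unadjusted limma p under 0.05 there were 8 of 14, beside 19.9%. The list was drawn up with earlier results of these data known, and nothing is read from these shares. Id1, an inhibitor that ties up bHLH activators and can pair with Hes1, fell from 342.0 and 355.5 to 103.6 and 81.6 (-1.82, SE 0.14, adjusted p = 2.82e-04), with a dimmer probe set at -0.27. Myog, a bHLH factor of muscle differentiation, rose from 218.6 and 190.7 to 337.0 and 330.4 (0.68, SE 0.11, adjusted p = 0.0143). Myf6, its relative in mature fibres, fell from 990.2 and 883.4 to 644.7 and 631.6 (-0.55, SE 0.098, adjusted p = 0.0201).

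Bhlhe41, a repressor of the wider HES-like group that also acts in the clock, rose from 45.8 and 58.5 to 119.9 and 87.3 (0.87, SE 0.19, adjusted p = 0.0399). Id2, singled out after its values were seen, lay just outside the threshold, at 73.2 and 87.6 against 149.4 and 118.7 (0.67, SE 0.16, adjusted p = 0.0522). Of the 4 that passed, Id1 passed whichever pool was left out (adjusted p = 0.00565 to 0.0111). Myog passed only without control pool 1, at adjusted p = 0.0485, against 0.0884 when control pool 2 was left out, and 0.139 and 0.115 when unloaded pool 1 or 2 was. Myf6 (0.0691 to 0.135) and Bhlhe41 (0.0797 to 0.259) passed in none of these 4 fits.

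**Figure D4:**
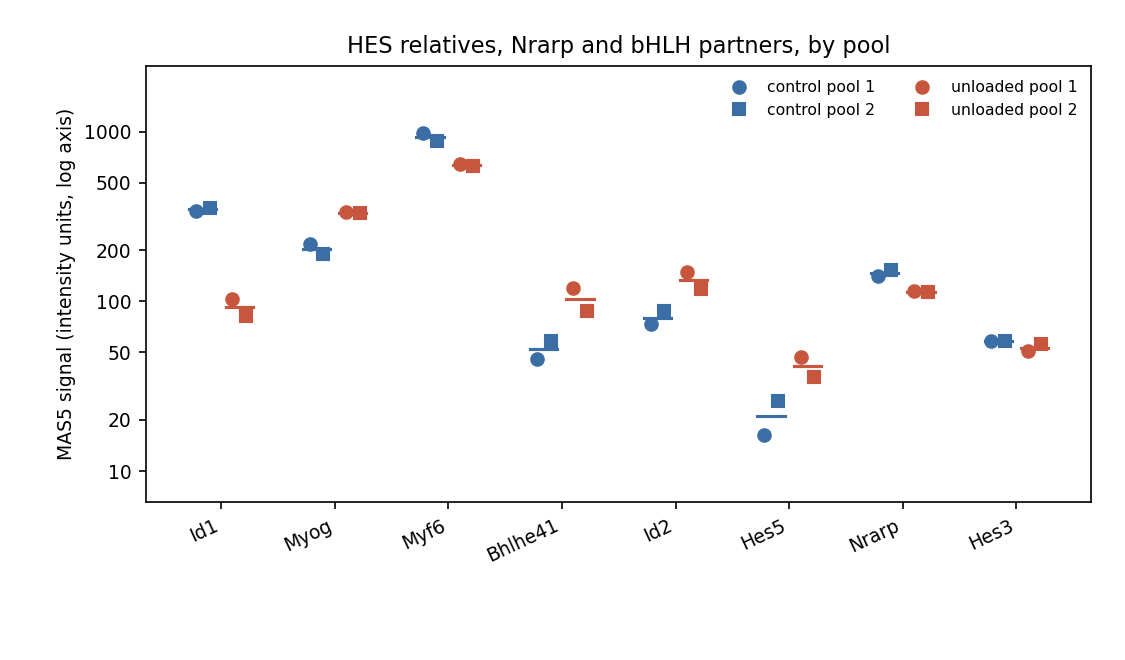
MAS5 signal (log axis) of 8 genes of the HES and bHLH list in each pool, with control pools in blue, unloaded pools in red and group means as lines (n = 2 pools per group). Id1 falls from 342.0 and 355.5 to 103.6 and 81.6, Myog and Bhlhe41 are higher and Myf6 is lower in both unloaded pools, and Hes5, Nrarp, Hes3 and Id2 did not pass the test.

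Cell types that carry Notch genes were read through marker lists. The summed signal of 5 endothelial genes of 9 listed was 382 and 388 in controls and 326 and 355 in unloaded pools. None was called, Icam2 lay below the signal minimum and Vwf just above it. Flt1 was lower in both unloaded pools (164.3 and 157.2 against 122.5 and 150.4). Pecam1 overlapped between groups (156.3 and 138 against 144.8 and 153.3), as did Vwf and Kdr. The control pools of Kdr were far apart (25.5 and 55 against 26.7 and 17). The sum of 5 smooth muscle and pericyte genes of 7 was 1011 and 1124 in controls and 1238 and 1338 in unloaded pools, higher in both, with none called. Most of that sum was Acta2 (699.5 and 833.2 against 889 and 934.1). Myh11 (91.4 and 119.3 against 128.2 and 193.8) and Cnn1 (24 and 22.3 against 26.9 and 30.2) also lay higher in both unloaded pools. Tagln overlapped between groups, and Pdgfrb, the pericyte receptor, lay lower in both unloaded pools (42.1 and 37.7 against 33.1 and 32.3). The sums of 6 fibroblast genes (5989 to 6996 against 6737 to 7815) overlapped between groups. Dcn among them lay higher in both unloaded pools (2452.2 and 2865.3 against 3798.2 and 3282.7), and the other fibroblast genes overlapped. The sums of 2 satellite cell genes of 6 (752 to 1117 against 695 to 896) overlapped too. Most of them was Sdc4 (1047.2 and 670.3 against 646.3 and 843.1), while Ncam1 lay lower in both unloaded pools (69.8 and 82.1 against 48.5 and 53). The sums of 5 leukocyte genes of 7 (213 to 298 against 248 to 283) also overlapped. None of the genes in these lists was called. The 4 Schwann cell genes of 6 summed to 578 to 630 in controls and 546 to 561 in unloaded pools, with S100b and Sox10 below the minimum, as were Ptprc and Itgam among leukocyte genes. Nearly all of the Schwann sum was Pmp22 (540.8 and 599.2 against 508.2 and 521.3), while Mbp, a myelin protein, lay higher in both unloaded pools (24.3 and 20.2 against 26.8 and 26). Pax7 and Myf5, which define satellite cells, had no probe set used here. The part of these differences in the values of Hes1, Tle1, Notch1 and Jag1 was not tested.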

How the data were processed

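The authors' deposited table gives an intensity for every probe set on every array, made with MAS5 per the submitters' processing notes (settings not given in the sources used here). Such signals carry much noise where dim, their common scale takes total signal to be alike, and neither detection calls nor array batches were used. Of 8799 probe sets, 59 controls were left out. Names came from the platform's annotation, updated by gene ID to RefSeq (GRCr8): 7006 probe sets had 1 symbol, 308 several and 1426 none.

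Signals were taken as log2(signal + 9), 9 being the 25th percentile of all signals. Those averaging 21.0 or more, the 40th percentile, entered limma 3.58.1 in R 4.3.3 (lmFit, eBayes with a trend; 2 residual and 5.80 prior degrees of freedom) and Benjamini-Hochberg adjustment over all 5257. The steps were tested on simulated data. The number of arrays limits the precision.

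The members and lists were chosen with earlier results of these data known. Members were named whatever their values, and listed genes where they passed or had the smallest p, up to 4 a list. The 5 genes nearest to Hes1 were taken by the distance given in the text, and cell type markers were counted and summed. Single markers printed with their pool values were singled out after these values were seen. A gene of a list or marker list is its brightest probe set, by mean log2 signal. Alternatives were other normalizations, offsets, filters and no trend, the pool number as a block, each array left out, and the smallest p for a gene. Plots used matplotlib 3.10.9 (Python 3.11.15).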

Additional observations from a re-analysis of the deposited data

How the results depend on the processing

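Over the alternatives run, log2 differences ranged from 1.00 to 1.18 and 0.85 to 1.12 on the Hes1 probe sets, 1.05 to 1.45 for Tle1, -0.26 to -0.11 and -0.22 to -0.015 on those of Notch1, -0.24 to -0.10 for Jag1 and -0.31 to 0.035 for Notch2, whose sign turned without control pool 1. The filters, the trend and the block leave these values as they are by construction. Between 1 and 3 member probe sets passed with a pool left out, 1 when it was unloaded pool 1 or unloaded pool 2, and 3 with the pool number as a block. Over all probe sets the count of 276 became 90 without a filter, 113 without a mean-variance trend, 165 with the pool number as a replicate block, and 67 to 84 with a pool left out. The 4 pathway genes became 1 without a filter, 1 without a trend and 1 to 2 with a pool left out. With the block 3 passed, and Bhlhe41 did not (adjusted p = 0.0947). The causes were not tested. Deviations of same-numbered pools correlated at -0.044. With 2 pools a group, that value cannot show whether the block is a pairing, and the labels give only a pool number. Bhlhe41 also did not pass with quantile normalization (adjusted p = 0.0540), and Id2 passed with median scaling (0.0363) and with the filter at the 50th percentile (0.0353). With a pool left out, values changed sign for Adam17 (-0.48 to 0.074), Rbpj (-0.18 to 0.085), Foxd3 (-0.21 to 0.046) and Msx1 (-0.25 to 1.10), none of which passed. A lone pool is then assumed to vary like the other group. Dim probe sets such as Notch2 (mean 30.4) lie near the signal minimum.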

Other observations

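Furin, which cuts Notch receptors before they reach the cell surface, gave unlike readings on its probe sets. On the dimmer one it read 129.6 and 123.2 in controls and 96.2 and 91.1 in unloaded pools (-0.40, SE 0.12, limma adjusted p = 0.123), and on the brighter one 196.6 and 182.7 against 214.0 and 189.0 (0.082, SE 0.12). Id3, a relative of Id1, lay lower in both unloaded pools on both of its probe sets, by -0.47 (SE 0.19, limma adjusted p = 0.223) and -0.62 (SE 0.21, adjusted p = 0.149), and neither passed. Both genes were singled out after their values were seen.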
